A study of Mus musculus with 4 samples.

Results

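Solute carrier (SLC) transporters were examined in RAW 264.7 cells, an Abelson virus-transformed mouse macrophage line. The members were the protein-coding genes whose symbol is Slc followed by a digit, and they were chosen by a measured value, a mean CPM (the read count scaled to the library total) of at least 1 over the 4 libraries. Of 371 such genes, 184 passed, out of 54532 genes in the count tables. These 184 belonged to 42 numbered families, and 180 of them encode transporters. The other 4, Slc9a3r1, Slc9a3r2, Slc4a1ap and Slc7a6os, carry an Slc symbol through a partner or neighbouring gene.

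Polyadenylated RNA was sequenced from wild-type and Hnrnpul1-/- cultures, the latter called knockout here. Hnrnpul1 encodes a nuclear RNA-binding protein. The groups were untreated wild type, untreated knockout, wild type with lipopolysaccharide (LPS) at 100 ng/ml for 10 h, and knockout with the same LPS treatment. Each group held 1 library, so no difference below has a replicate check. The labels leave unsaid whether the knockout is 1 clone. Values are given in the order in which the groups stand above.

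SLC proteins move nutrients, metals, ions and metabolites across the plasma membrane and the membranes of organelles. Many work as partners, such as the SLC7 light chains that need the heavy chain Slc3a2 to reach the cell surface, and others set the contents of mitochondria, lysosomes and the Golgi. Macrophages activated by LPS, the bacterial outer membrane component recognised by TLR4, are known for a high use of glucose, arginine and cystine and for withholding metals from microbes.

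Read counts were scaled by the trimmed mean of M values (TMM), and levels are given as normalized CPM. Ratios are log2 ratios of normalized counts between 2 libraries, each with an exact 95% binomial interval. The interval covers counting error only and no spread between cultures, since each group is 1 library. Reads that carry no molecular identifier can be copies of 1 molecule, so the interval can be too narrow even for counting error. A gene was called higher or lower where its ratio reached 2-fold and its interval excluded no change, and "rose" and "fell" below mean that it was called. The background for each count is the share of 10334 protein-coding genes called by the same rule.

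With LPS, 31 of 184 members (16.8%) rose in wild type, against a background of 10.9%, and 20 (10.9%) fell, against 10.3%. In knockout cells 32 (17.4%) rose, against 11.3%, and 23 (12.5%) fell, against 12.1%. In both genotypes 26 members (14.1%) rose, against 9.65%, and 17 (9.24%) fell, against 8.9%. By TMM, the shares that fell were thus close to the background, while the shares that rose were above it in each genotype. Outside these, 20 members were called in 1 genotype and 121 in neither, and none was called in opposite directions. These shares depend on the scaling. Among called members, 60.8% in wild type and 58.2% in knockout were higher by TMM, and 33.3% and 40.4% by total counts. Of all 184 members, total counts gave 17 higher and 34 lower in wild type, and 23 higher and 34 lower in knockout. Of protein-coding genes, 8.08% and 8.32% were then higher, and 16.5% and 18.6% lower. Of the 26 that rose in both genotypes, 15 did so by total counts, and the 11 that did not were Slc16a11, Slc16a3, Slc20a1, Slc25a24, Slc25a33, Slc39a1, Slc39a4, Slc4a7, Slc6a9, Slc7a1 and Slc9a3r2. All 17 that fell in both did so by total counts too.

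The median member had a log2 LPS ratio of 0.11 in wild type and 0.10 in knockout, where all protein-coding genes tested had medians of -0.02 and -0.03. By total counts the members' medians were -0.19 and -0.21, and those of the protein-coding genes -0.31 and -0.34. The median size of the log2 ratio, without its sign, was 0.53 and 0.57 for members and 0.43 and 0.46 for protein-coding genes. Across the 184 members the LPS ratios of both genotypes, which share no library, had a Pearson r of 0.95 and a Spearman rho of 0.96, and 169 members had the same sign. The points share 1 scaling per library. A list of 30 transporters known from macrophage activation, chosen with earlier results of these data known, had 29 measured genes, of which 14 (48.3%) rose and 1 (3.45%) fell in wild type, where the backgrounds were 10.9% and 10.3%. In knockout 13 (44.8%) rose and 0 fell, where they were 11.3% and 12.1%. Because the list was chosen in that way, its shares are a description and no independent support.

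**Figure D1:**
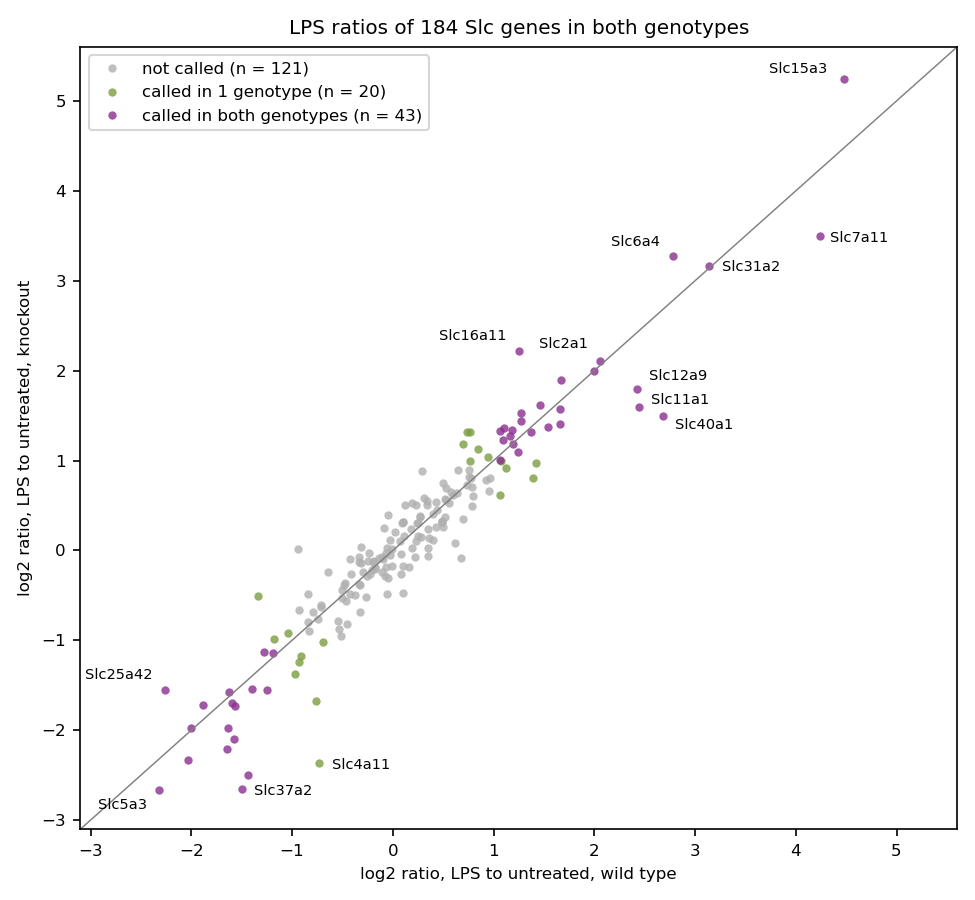
Each point is 1 of the 184 Slc members, with its log2 ratio of LPS to untreated in wild type on the x axis and in knockout on the y axis; the grey line marks equal ratios. Slc15a3 (4.48 and 5.24) and Slc7a11 (4.24 and 3.50) lie farthest to the upper right, and Slc37a2 (-1.50 and -2.65) and Slc4a11 (-0.73 and -2.36) lie below the line.

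The peptide class held the largest LPS ratio of all members. Slc15a3, a lysosomal carrier of histidine, short peptides and bacterial muropeptides (chr19:10839727-10859362, GRCm38), was measured at 23.9, 25.4, 535 and 962 normalized CPM. Both LPS libraries lay far above both untreated ones, 22.3-fold (log2 4.48, interval 4.34 to 4.62) for wild-type cells and 37.8-fold (5.24, 5.11 to 5.37) for knockout cells. Exons of Tmem132a on the other strand cover 28.1% of its exonic bases, and no source used here states whether reads were counted by strand. The related carrier Slc15a4, an endolysosomal protein that takes part in signalling from nucleic acid-sensing receptors, stood at 36.6, 37.4, 34.5 and 30.7 normalized CPM and was not called.

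The class of amino acid and related carriers held 25 members, among them the serotonin carrier Slc6a4, the creatine carrier Slc6a8, the taurine carrier Slc6a6 and the betaine carrier Slc6a12. In wild type 8 (32%) rose and 1 (4%) fell, against backgrounds of 10.9% and 10.3%, and in knockout 7 (28%) rose and 1 (4%) fell, against 11.3% and 12.1%. The class median was 0.53 and 0.40 by TMM and 0.23 and 0.09 by total counts. Slc7a11 (chr3:49892526-50443614), the light chain of the cystine and glutamate exchanger that supplies cysteine for glutathione, was at 40.1, 47.6, 754 and 541 normalized CPM. Its log2 LPS ratio was 4.24 (4.13 to 4.34) for wild-type cells and 3.50 (3.41 to 3.60) for knockout cells, and every LPS value exceeded every untreated value. Slc3a2, the CD98 heavy chain that pairs with Slc7a11 and other SLC7 proteins, was at 141, 150, 444 and 447 normalized CPM and rose by 1.66 and 1.57 on the log2 scale.

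The other light chains that pair with Slc3a2 had smaller ratios. Slc7a5, which imports leucine and other large neutral amino acids, had log2 LPS ratios of 0.94 and 1.04 and was called in knockout. Slc7a7, an arginine exchanger, had ratios of 1.42 and 0.97, and Slc7a8, a further neutral amino acid exchanger, 1.39 and 0.80, both called in wild type. Slc7a6 had ratios of 0.19 and 0.03 and was not called. None of these 4 was called for a different LPS ratio between genotypes, and by TMM all 7 members with an Slc7 symbol, Slc7a6os included, had ratios above 0 in both genotypes, while by total counts Slc7a6 had not.

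Arginine enters macrophages through the cationic transporters. Slc7a1 was at 253, 254, 540 and 594 normalized CPM and rose by 1.09 and 1.23 on the log2 scale. Slc7a2, another plasma membrane arginine carrier, had 0 reads in all 4 libraries, and a count of 0 allows up to 3 reads per library.

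Slc1a4, an exchanger of alanine, serine and cysteine, rose by 1.66 and 1.41, from 17.8 and 24.2 to 56.2 and 64.3 normalized CPM. Its relative Slc1a5, an importer of glutamine, had log2 ratios of 0.58 and 0.65 and was not called, although at 344, 329, 516 and 515 normalized CPM it was an abundant transcript. Slc6a4, the serotonin transporter, rose by 2.78 and 3.27, from 3.63 and 1.29 to 24.9 and 12.4 normalized CPM. Slc6a9, a glycine transporter with 30.2% of its exonic bases shared with B4galt2 and Ccdc24, rose by 1.19 and 1.18. The SLC38 family, which holds carriers of glutamine and alanine, gave no call among 6 members, and Slc38a2 had ratios of 0.53 and 0.56. The backgrounds were 10.9% higher and 10.3% lower in wild type and 11.3% and 12.1% in knockout. With these shares, 6 members are too few to read the lack of calls as a family trait. In the opposite direction Slc43a2, a facilitative carrier of large neutral amino acids, was at 72.7, 53.8, 24.2 and 12.6 normalized CPM and fell by 1.58 and 2.10 on the log2 scale. Slc1a4 and Slc6a9, like the other members outside the naming rule, were named here after their values had been seen.

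Promoter windows were examined because amino acid carriers are textbook targets of ATF4, which binds the letters TGATGNAA, and Slc7a11 is also a target of NRF2, which binds TGACNNNGC. The windows ran from 250 bases before to 50 after each RefSeq start (GRCm38.p6), both strands were searched, and the motifs do not contain each other. RefSeq windows were found for 142 members, 196 windows in all. TGATGNAA was present in 7 of these 196 (3.57%) and in 3.97% of all 32851 windows, and among members that rose in both genotypes in 2 of 29 (6.9%). TGACNNNGC was present in 42 of 196 (21.4%) and in 12.4% of all windows. It was in 10 of 29 windows (34.5%) of members that rose in both genotypes. Of those that fell in both, 5 of 27 windows (18.5%) held it. By gene, it was present in 9 of 22 that rose in both and 3 of 16 that fell in both. The set of all windows covers 27025 genes, without the expression filter that the members passed. Whether members hold either motif more often than other expressed genes was not tested. The genes of members with TGACNNNGC numbered 36, and Slc7a11 was not among them. Amino acid members with TGATGNAA were Slc7a11, Slc1a4 and Slc7a7, and their windows are shown for this match, cropped to 20 bases after the start. Capitals mark each match on either strand, and all 3 lie on the minus strand at chr3:50443594-50443863, chr11:20332694-20332963 and chr14:54417925-54418194.
Slc7a11: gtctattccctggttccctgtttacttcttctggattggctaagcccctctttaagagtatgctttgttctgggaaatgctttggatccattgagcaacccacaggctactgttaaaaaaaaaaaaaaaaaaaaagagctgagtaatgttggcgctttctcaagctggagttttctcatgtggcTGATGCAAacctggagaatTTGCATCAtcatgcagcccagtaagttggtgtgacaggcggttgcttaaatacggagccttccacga
Slc1a4: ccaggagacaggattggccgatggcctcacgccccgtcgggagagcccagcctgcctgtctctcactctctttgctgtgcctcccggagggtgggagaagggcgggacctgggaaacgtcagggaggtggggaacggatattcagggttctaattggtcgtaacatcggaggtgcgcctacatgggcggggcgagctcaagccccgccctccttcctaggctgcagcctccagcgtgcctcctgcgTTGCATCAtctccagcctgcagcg
Slc7a7: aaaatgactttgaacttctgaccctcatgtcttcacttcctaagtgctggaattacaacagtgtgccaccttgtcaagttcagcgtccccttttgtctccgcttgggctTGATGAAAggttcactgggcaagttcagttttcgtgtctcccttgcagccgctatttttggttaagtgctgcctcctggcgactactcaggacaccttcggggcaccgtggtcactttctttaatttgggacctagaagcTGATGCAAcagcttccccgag
In Slc7a11 the matches begin 66 and 47 bases before the start and face each other. The match in Slc1a4 begins 4 bases before the start, and those in Slc7a7 begin 141 and 1 bases before it. The start printed for Slc7a7 lies 164 bases from the gene start in the files. A further RefSeq start, at 54417702 and 78 bases from the gene start, has a window that holds the second of these matches, beginning 243 bases before that start. A match is a description of letters and not evidence of binding, and a window without one says only that the letters are not in that window.

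Among the sugar carriers, glucose transporters differed from member to member. Slc2a1 (chr4:119108711-119137983), the main glucose importer GLUT1, was at 237, 238, 986 and 1029 normalized CPM and rose by 2.06 (2.01 to 2.11) and 2.11 (2.07 to 2.16) on the log2 scale. Slc2a6, a lysosomal hexose carrier, was at 137, 144, 377 and 444 normalized CPM and rose by 1.46 and 1.62. Slc2a3, the high-affinity neuronal type glucose transporter, had LPS ratios of -0.01 and 0.02, and the intracellular carrier Slc2a8 fell by 2.0 and 1.98 from 5.47 and 5.89 normalized CPM.

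Of the 13 sugar and polyol carriers, 3 (23.1%) rose and 4 (30.8%) fell in wild type, against 10.9% and 10.3% of protein-coding genes, and 2 (15.4%) rose and 3 (23.1%) fell in knockout, against 11.3% and 12.1%. Slc5a3 (chr16:92058322-92087473), which imports the osmolyte myo-inositol, was at 364, 246, 73.0 and 38.6 normalized CPM with log2 ratios of -2.32 (-2.41 to -2.23) and -2.67 (-2.79 to -2.55), and fell in both genotypes. Slc37a2 (chr9:37227585-37255738), an endoplasmic reticulum exchanger of glucose-6-phosphate and phosphate, was at 262, 440, 92.9 and 70.0 normalized CPM. Both LPS values were below both untreated values, and the log2 ratios were -1.50 (wild type) and -2.65 (knockout). The other SLC37 members Slc37a1, Slc37a3 and Slc37a4 had ratios between -0.07 and 0.57 and were not called.

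Of 26 metal and heme transporters, 8 (30.8%) rose and 2 (7.69%) fell in wild type, beside backgrounds of 10.9% and 10.3%. In knockout 8 (30.8%) rose and 3 (11.5%) fell, beside 11.3% and 12.1%, with class medians in the order of the genotypes of 0.37 and 0.35 by TMM and 0.07 and 0.04 by total counts. Iron carriers were among those that rose. Slc40a1 (chr1:45908068-45926523), ferroportin and the sole known cellular iron exporter, was at 6.79, 8.72, 43.4 and 24.5 normalized CPM. It rose by 2.68 (2.40 to 2.96) in wild-type cells and by 1.49 (1.23 to 1.76) in knockout cells.

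Slc11a1 (chr1:74375195-74386062), which pumps iron and manganese out of the phagosome, was at 7.05, 5.73, 38.2 and 17.4 normalized CPM and rose by 2.44 and 1.60. RAW 264.7 cells are known to carry the allele of Slc11a1 that impairs the protein, so its transcript does not stand for transport. The endosomal iron carrier Slc11a2 was at 39.6, 35.6, 158 and 142 normalized CPM and rose by 2.0 in each genotype. Slc48a1, which moves heme out of the phagolysosome, was at 43.5, 43.6, 69.8 and 41.2 normalized CPM and was not called, with ratios of 0.68 and -0.08.

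Copper and zinc carriers split by member. Slc31a2, a copper transporter of endosomes and lysosomes, was at 9.58, 8.57, 84.3 and 76.6 normalized CPM and rose by 3.14 and 3.16, while the plasma membrane copper importer Slc31a1 had ratios of 0.40 and 0.12 and was not called. Among the zinc importers of the SLC39 family, Slc39a1 (1.10 and 1.36) and Slc39a4 (1.27 and 1.44) rose in both genotypes, and Slc39a7 (0.70 and 1.18) in knockout. For Slc39a7, 80.7% of its exonic bases are shared with Gm20427 on the same strand. Slc39a5 fell by 1.44 and 2.50, on 37, 34, 11 and 5 reads, and Slc39a10, with ratios of -0.97 and -1.37, fell in knockout. Slc39a14, an importer of zinc and iron known from inflammation, had ratios of 0.25 and 0.30 and was not called. Within the SLC30 zinc exporters, Slc30a4 (1.07 and 0.99) rose in wild type and the other 5 were not called. The magnesium carriers Slc41a2 (1.37 and 1.32) rose and Slc41a3 (-1.60 and -1.70) fell in both genotypes. Slc41a3 had 45, 39, 12 and 10 reads and, like Slc39a5, passed the threshold through its untreated values.

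**Figure D2:**
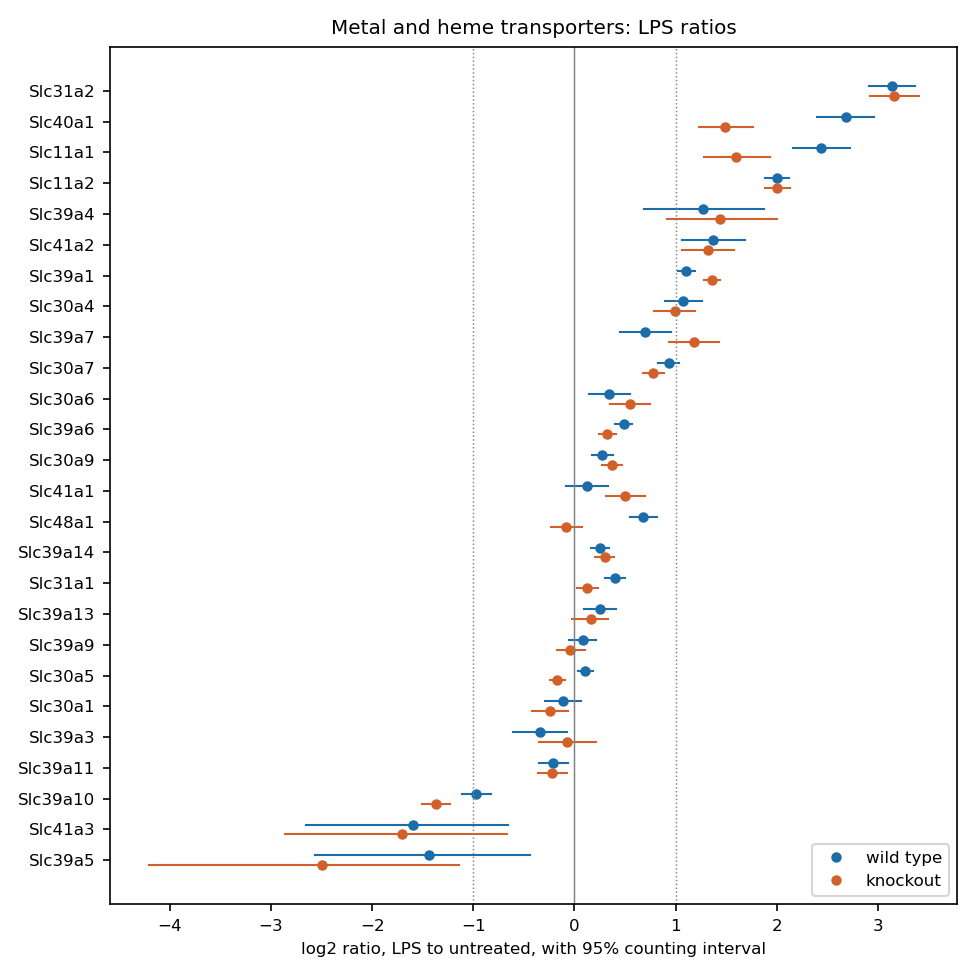
The 26 metal and heme transporters are ordered by the mean of their log2 LPS ratios; points are the ratios in wild type (blue) and knockout (orange), bars are 95% counting intervals, and dotted lines mark 2-fold. Slc40a1 lies at 2.68 (2.40 to 2.96) in wild type and at 1.49 (1.23 to 1.76) in knockout. Slc11a1 (2.44 and 1.60) and Slc48a1 (0.68 and -0.08) also lie lower in knockout, and Slc39a1 (1.10 and 1.36) lies higher. Slc31a2 and Slc11a2 lie at nearly the same ratio in both. The bars cover counting error only.

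Monocarboxylate carriers moved in both directions. Slc16a3, the lactate exporter MCT4 of glycolytic cells, was at 369, 345, 825 and 832 normalized CPM and rose by 1.16 and 1.27. Slc16a1, the lactate and pyruvate carrier MCT1, was at 378, 377, 350 and 359 normalized CPM with ratios of -0.11 and -0.07. Slc16a7, a high-affinity pyruvate carrier, fell by 1.88 and 1.72, and Slc16a4 by 1.65 and 2.21. Slc16a11 rose by 1.25 and 2.22 on 13, 8, 25 and 31 reads, and it was the only member under 1 CPM in both untreated libraries, so that it entered through its LPS values.

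Ion and pH transporters numbered 24, of which 5 (20.8%) rose and 2 (8.33%) fell in wild type, where 10.9% and 10.3% of protein-coding genes did. In knockout 5 (20.8%) rose and 4 (16.7%) fell, where 11.3% and 12.1% did. Slc12a9, a cation and chloride cotransporter family member, was at 28.8, 30.5, 154 and 106 normalized CPM and rose by 2.42 and 1.8. Slc12a4, a potassium and chloride cotransporter of cell volume control, rose by 1.67 and 1.90, the phosphate importer Slc20a1 by 1.24 and 1.10, and the sodium bicarbonate cotransporter Slc4a7 by 1.18 and 1.34. Slc9a9, an endosomal sodium and proton exchanger, was at 47.9, 32.7, 11.7 and 6.52 normalized CPM and fell, with log2 ratios of -2.03 and -2.33, as did Slc9a5, with -1.57 and -1.73.

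Mitochondrial carriers formed the largest class, with 36 members of the SLC25 family. By TMM, 3 of these (8.33%) rose and 3 (8.33%) fell in each genotype, the same 6 in both. These shares were below the TMM backgrounds of 10.9% and 10.3% in wild type and of 11.3% and 12.1% in knockout. The medians were -0.07 and -0.03 by TMM and -0.36 and -0.34 by total counts. Those that rose were Slc25a22, a glutamate carrier (1.54 and 1.37), Slc25a24, an exchanger of ATP-magnesium and phosphate (1.27 and 1.53), and Slc25a33, a pyrimidine nucleotide carrier (1.06 and 1.01). Those that fell were Slc25a10, the dicarboxylate carrier (-1.19 and -1.14), Slc25a23, also an ATP-magnesium and phosphate exchanger (-1.64 and -1.97), and Slc25a42, a coenzyme A carrier (-2.26 and -1.55, on 89, 53, 15 and 15 reads). Slc25a25, a further exchanger of ATP-magnesium and phosphate, had ratios of 0.76 and 0.90 and was not called. Slc25a1, the citrate carrier, had ratios of -0.19 and -0.12 and was not called.

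Nucleoside carriers were the class with the lowest medians among classes of 3 or more members, at -1.02 and -1.12. Slc29a1 and Slc29a2, the equilibrative nucleoside carriers of the plasma membrane, fell by 1.63 and 1.25 in wild type and by 1.58 and 1.55 in knockout. Their lysosomal relative Slc29a3 had ratios of 0.08 and -0.26, and the nucleobase carrier Slc43a3 -0.79 and -0.69, neither called. Among organic ion carriers Slc17a5, which exports sialic acid from lysosomes, fell by 1.28 and 1.13.

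SLC35 carriers, some of which bring nucleotide sugars into the Golgi and endoplasmic reticulum, had medians of -0.05 and -0.07 by TMM. By total counts these medians were -0.35 and -0.38. No member of 20 was called in wild type, against backgrounds of 10.9% higher and 10.3% lower. In knockout 1 (5%) rose and 1 (5%) fell, against 11.3% and 12.1%. Slc35a2, the UDP-galactose carrier, rose there by 1.13 and Slc35g1 fell by 1.17, with wild-type ratios of 0.85 and -0.91. Neither gene was called for a difference between the genotypes. Of 7 lipid and choline carriers, 1 (14.3%) fell in each genotype, against 10.3% and 12.1%, and 1 (14.3%) rose in knockout, against 11.3%. Slc44a1, a choline importer, was at 209, 194, 79.5 and 66.6 normalized CPM and fell by 1.40 and 1.54. Slc27a4, with ratios of 0.77 and 1.0, rose in knockout, where its ratio by total counts was 0.693. Among 7 vitamin carriers, 1 (14.3%) fell in knockout, against 12.1%. It was Slc46a1, with ratios of -0.69 and -1.02 on 50, 44, 25 and 18 reads. The vitamin C transporter Slc23a2 had ratios of 0.95 and 0.66 and was not called. Nor were the thiamine importer Slc19a2 (-0.51 and -0.95) and the folate importer Slc19a1 (-0.34 and -0.13).

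**Figure D3:**
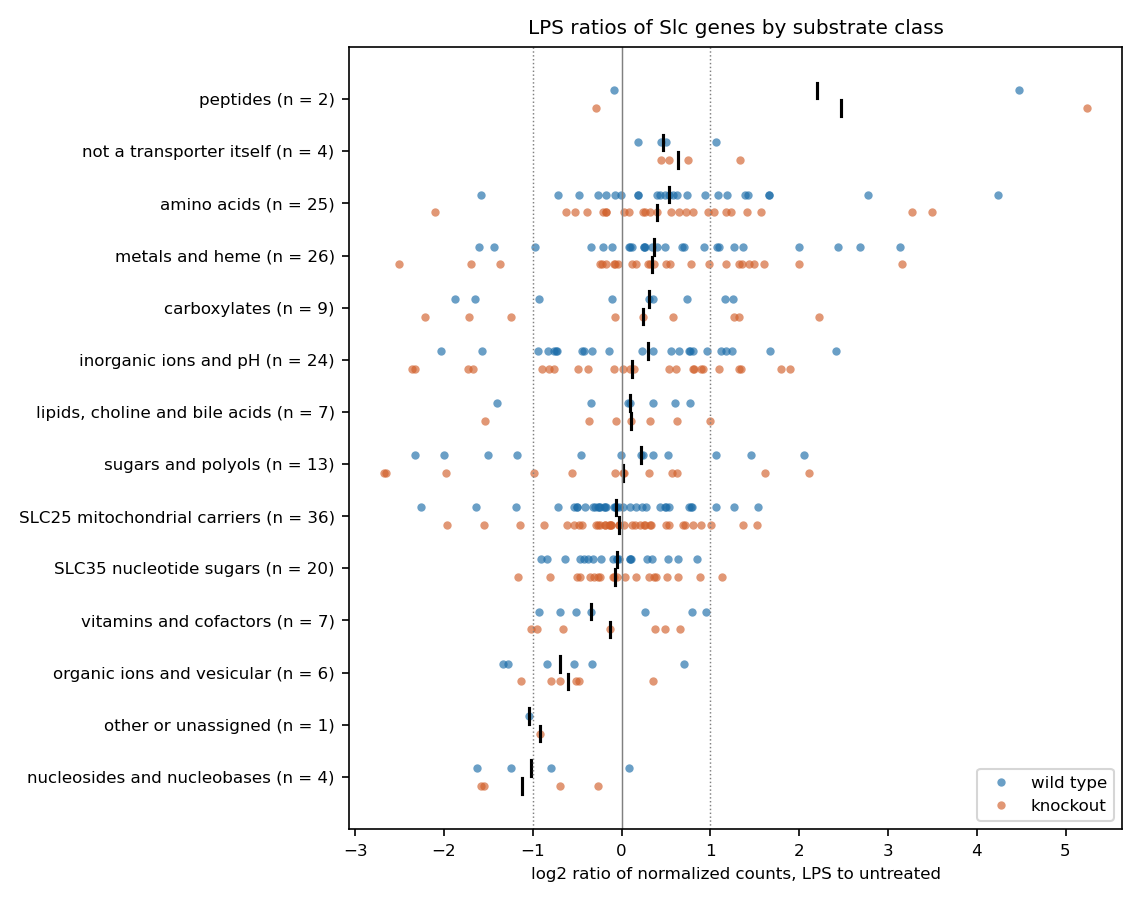
Log2 ratios of LPS to untreated for the 184 members, in rows by substrate class with the number of members; blue points are wild type, orange points knockout, black bars the class medians, and dotted lines mark 2-fold. By TMM, amino acid carriers have medians of 0.53 and 0.40 and nucleoside carriers -1.02 and -1.12. The SLC25 and SLC35 medians lie within 0.07 of 0 by TMM. By total counts the SLC25 medians are -0.36 and -0.34 and the SLC35 medians -0.35 and -0.38. Those of protein-coding genes are then -0.31 and -0.34.

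**Figure D4:**
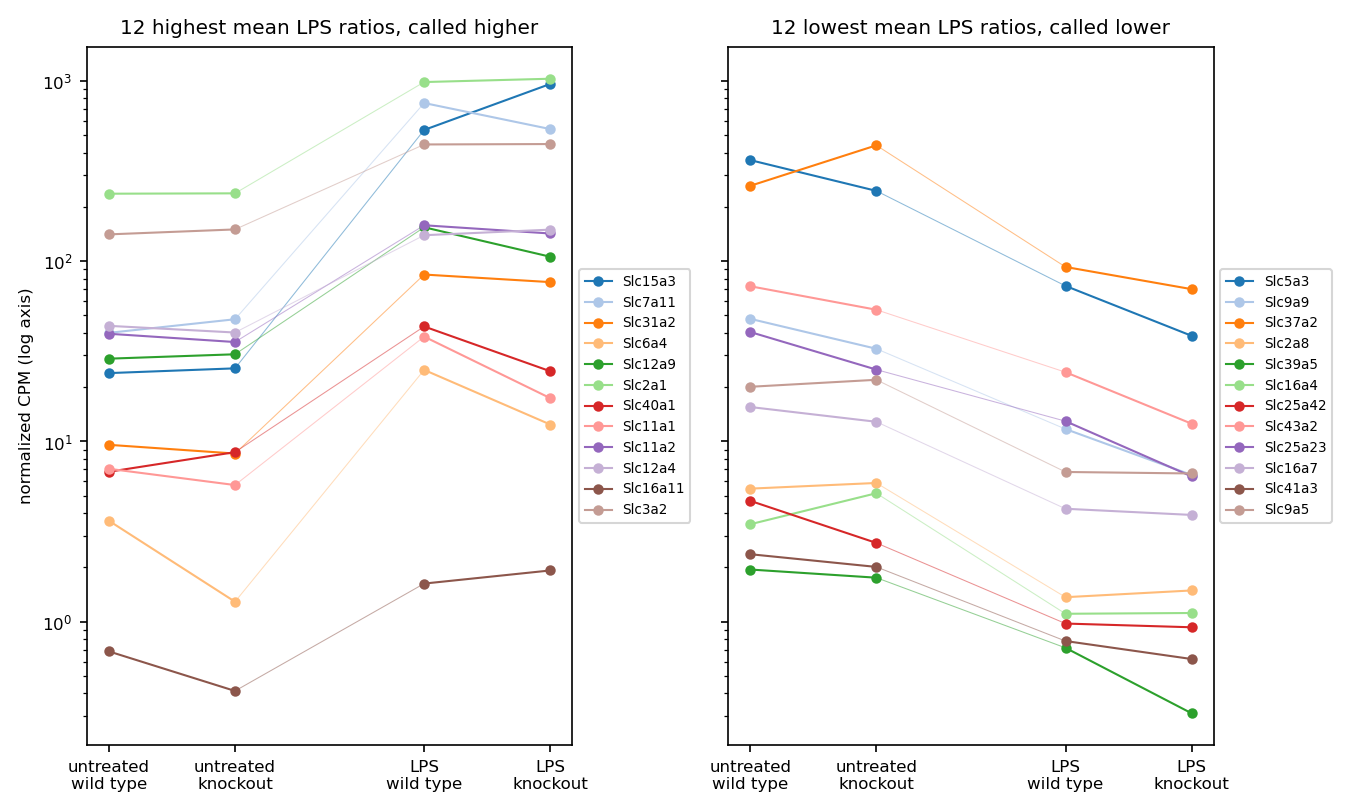
Normalized CPM on a log axis in the 4 libraries for the 12 members with the highest and the 12 with the lowest mean LPS ratio among those called in both genotypes; thin lines only guide the eye from the untreated knockout to the LPS-treated wild-type library. Slc15a3 runs from 23.9 to 962 normalized CPM and Slc5a3 from 364 to 38.6.

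Levels were compared between members per kilobase of gene length. Slc25a5, an exchanger of ADP and ATP in the inner mitochondrial membrane, led in every library at 581.5, 597.7, 569.0 and 651.4 normalized CPM per kb, although its processed pseudogenes could take or give reads. In untreated wild type it was followed by its paralog Slc25a4 (135.9), the mitochondrial phosphate carrier Slc25a3 (120.7) and Slc6a12, a carrier of betaine and GABA (107.2). With LPS, Slc2a1 followed Slc25a5 in both genotypes, at 281.3 and 293.6, and Slc15a3 stood next in knockout at 175.3. Summed over the members, the level was 13530, 13300, 18140 and 18070 normalized CPM. These sums depend on the scaling, since the TMM factors were 1.11, 1.12, 0.901 and 0.899 and so raise the LPS values relative to the untreated ones.

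Between genotypes the members differed less than between treatments. Without LPS no member was higher in knockout, against a background of 0.968%, and 2 (1.09%) were lower, against 0.677%. With LPS no member was higher, against 1.49%, and 6 (3.26%) were lower, against 1.65%. In both treatments together none was higher, against 0.358%, and 2 were lower, against 0.319%. The members' median log2 genotype ratio, knockout over wild type, was -0.03 without and -0.05 with LPS, where protein-coding genes had 0.01 and -0.00. Across the 184 members both genotype ratios, which share no library, had r = 0.43 and rho = 0.33, with 112 members of the same sign, and low counts add noise to both.

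Slc6a4 and Slc45a3 were the members lower in knockout in both treatments. Slc6a4 had 69 and 25 reads untreated and 383 and 200 with LPS, ratios of -1.49 (-2.21 to -0.81) and -1.01 (-1.26 to -0.76). Slc45a3 (chr1:131962967-131982969), a proton-coupled sugar carrier, had 71, 32, 120 and 41 reads and ratios of -1.18 (-1.83 to -0.56) and -1.62 (-2.17 to -1.10). Both knockout libraries lay below the wild-type library of the same treatment for each gene. With DESeq2 size factors, and in libraries thinned to equal depth, the LPS ratio of Slc6a4 was -0.998 and -0.986, short of 2-fold.

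The 4 further members lower in knockout with LPS were not called without it. Slc11a1 had a ratio of -1.13 (-1.34 to -0.93) with LPS and -0.30 (-0.68 to 0.07) without. Slc9b2, a sodium and proton exchanger of endolysosomes, was at 27.1, 23.4, 16 and 7.33 normalized CPM with ratios of -1.12 and -0.21. Slc25a23 was at 40.5, 25, 13 and 6.4 normalized CPM, with ratios of -1.02 (-1.38 to -0.67) and -0.69. Slc4a11, an ion carrier of the bicarbonate transporter family, had 41, 37, 20 and 6 reads and a ratio of -1.81 (-3.41 to -0.44) with LPS, the widest interval of the 6.

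Among the other iron and heme carriers none was called between genotypes. Slc40a1 had a genotype ratio of 0.36 (0.02 to 0.70) without LPS and of -0.82 (-1.01 to -0.64) with it. Slc48a1 had 0.00 and -0.76, and Slc11a2 -0.15 in both treatments. The mitochondrial iron importers Slc25a37 and Slc25a28 had 0.20 and -0.05 without LPS and 0.05 and 0.06 with it. Of the 26 metal and heme members, 8 had ratios above 0 in each treatment, and the class medians were -0.08 without and -0.12 with LPS. For Slc15a3 the genotype ratio was 0.09 without LPS and 0.85 (0.81 to 0.89) with it, under the 2-fold limit.

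Of 10 fixed macrophage markers, all measured, 0 were higher and 1 was lower in the LPS-treated knockout, with a median genotype ratio of -0.15. Their summed levels were 4153, 3725, 9459 and 6772 normalized CPM. The marker called lower was Lyz2, at 1587, 1113, 3334 and 1245, and without it the sums were 2566, 2612, 6125 and 5527. With LPS, Adgre1 had a genotype ratio of 0.77, Itgam 0.31, Ptprc 0.14, Mpeg1 -0.00 and Csf1r -0.69. Those of Fcgr3, Spi1, Cd14 and Cd68 were -0.13, -0.16, -0.19 and -0.27, and that of Lyz2 was -1.42. The part of these markers in the genotype ratios of the transporters was not tested. In RNA pooled over a culture, fewer cells of a state and less RNA per cell cannot be told apart.

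**Figure D5:**
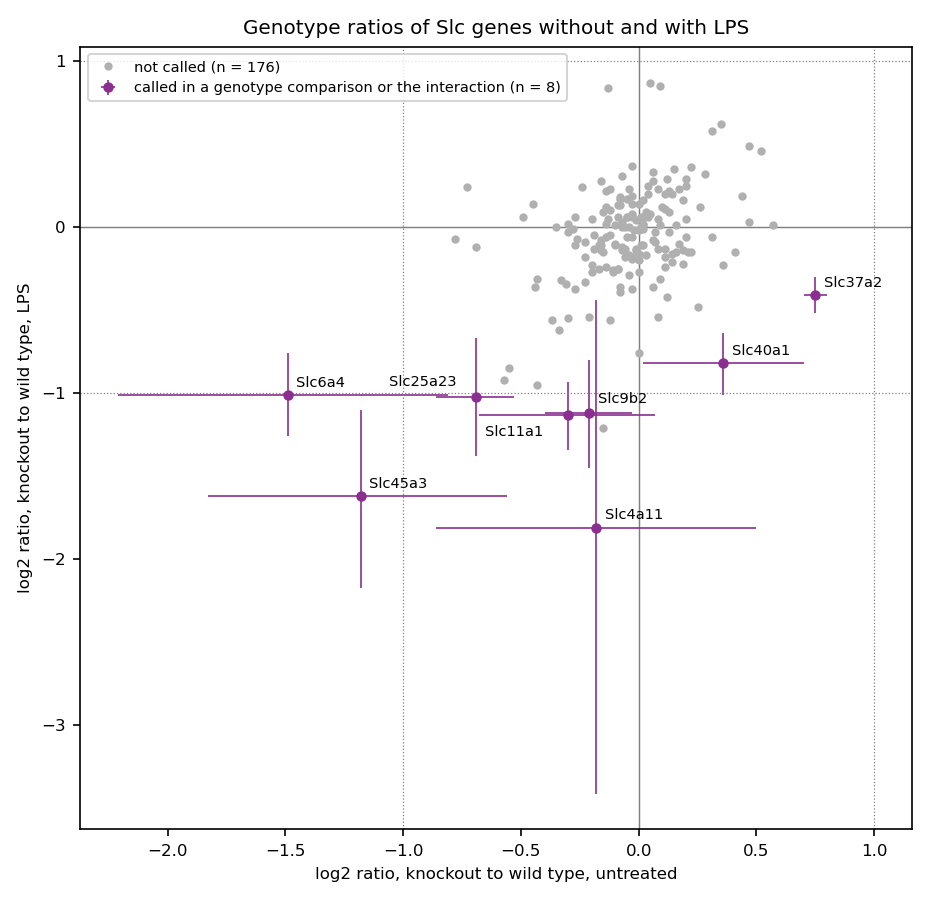
Each point is 1 of the 184 members, with its log2 ratio of knockout to wild type without LPS on the x axis and with LPS on the y axis; purple points were called in a genotype comparison or in the difference of LPS ratios, with 95% counting intervals, and dotted lines mark 2-fold. Slc6a4 (-1.49 and -1.01) and Slc45a3 (-1.18 and -1.62) lie past 2-fold on both axes, and Slc37a2 (0.75 and -0.41) changes sign.

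The LPS ratio itself was compared between genotypes as the knockout minus the wild-type log2 ratio. No member had a called higher LPS ratio in knockout, against a background of 0.823%, and 3 members (1.63%) had a called lower one, against 1.4%. The share of 3 members is close to the background. Slc37a2 had a difference of -1.16 (-1.28 to -1.03), with the knockout above wild type when untreated (440 against 262 normalized CPM) and below it with LPS (70.0 against 92.9). Slc40a1 had a difference of -1.19 (-1.56 to -0.81), rising in both genotypes but less in knockout, and of -0.797 from the deposited FPKM as log2(value + 1). Slc4a11 had a difference of -1.63 (-3.09 to -0.17), resting on 6 reads in the LPS-treated knockout. Of the 20 members whose LPS call was made in 1 genotype, Slc4a11 was the only one with a called difference, and all 20 had the same sign in both genotypes.

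Outside the members, 187 Slc genes lay under the threshold, 108 of them with 0 reads in all libraries and 7 with at least 1 CPM in 1 library. Just outside it were Slc25a35 (mean CPM 0.825), Slc28a2 (0.887) and Slc7a14 (0.959), and just inside it Slc16a11 (1.104), Slc46a3 (1.185) and Slc39a5 (1.26). Slc28a2, a concentrative nucleoside transporter, had 1, 5, 7 and 50 reads. At the other end of the range, 155 members had a mean of at least 10 CPM and 37 of at least 100. No member had 0 reads in a library. Under 1 CPM in both LPS libraries were 4 members, Slc25a42, Slc39a5, Slc41a3 and Slc46a3, so that they entered through their untreated values. Slc25a42, Slc39a5 and Slc41a3 are among the 17 that fell in both genotypes, and Slc46a3 fell in wild type. Their fall is thus tied to how they passed the threshold.

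Transporters that carry other symbols were listed apart, and 33 of 49 listed genes were measured. None was called with LPS in wild type, where 10.9% of protein-coding genes rose and 10.3% fell. In knockout, where 11.3% rose and 12.1% fell, Letm2 (1.27, on 19 and 38 reads) and Cln3 (1.14), a lysosomal membrane protein, rose. Ctns, the lysosomal cystine exporter, fell there by 1.13. The medians of the 33 genes were -0.13 and -0.16. The wild-type ratios of Cln3 and Ctns were 0.97 and -0.48. Letm2 was also called higher in knockout than in wild type with LPS, at 1.18. Npc1, which releases cholesterol from lysosomes, had ratios of 0.95 and 0.79, and the mitochondrial carrier Ucp2 -0.04 and -0.03.

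The libraries held 17045432 to 17909549 reads assigned to genes. Hnrnpul1, the targeted gene, was at 267.7, 23.08, 202.8 and 21.74 normalized CPM, that is 8.62% of wild type without and 10.7% with LPS. All 6 fixed LPS-response genes rose in both genotypes. T cell and epithelial markers had at most 1 read in a library, and the fibroblast, B cell and endothelial lists summed to between 0 and 22 reads per library. Of the members, 58 share exonic bases with another annotated gene and 6 share at least 25%.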

How the data were processed

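Polyadenylated RNA was sequenced from 4 cultures, 1 per group. Tools listed in the submitters' processing notes are featureCounts 1.5.0-p3, HISAT2 2.0.5 and CASAVA 1.8, with mm10 and GRCm38 as builds. Whether strand was used in counting was not given in the sources used here. Deposited tables from the authors give unnormalized read counts per gene and FPKM. Each deposited FPKM value is the count over gene length and over a size that was 1.15, 1.16, 0.932 or 0.927 of the library's total, in the group order of the text.

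Libraries were scaled by TMM (edgeR 4.0.16 in R 4.3.3), with factors of 1.11, 1.12, 0.901 and 0.899. Ratios between 2 libraries were given exact conditional binomial intervals (SciPy 1.17.1), and differences of LPS ratios a normal interval on the log scale. With 1 library per group the comparisons themselves carry no p-value, and only the additive edgeR model below gives adjusted ones (Benjamini-Hochberg). The calling rule and the fits were tested on simulated data. Depth of 17045432 to 17909549 reads limits members of few reads, down to 5.

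The members, substrate classes and lists were chosen with earlier results of these data known. Named members were those of a fixed transporter list, the 3 highest and 3 lowest mean LPS ratios per class, every member called between genotypes or for a difference in LPS ratio, those nearest the threshold, and the 8 with the highest level per length in untreated wild type. Members named to fill a count beyond this rule were named after their values were seen. Alternatives were other scalings, DESeq2 1.42.0 size factors among them, other filters and limits, thinned libraries, the deposited FPKM and an additive edgeR model with 1 residual degree of freedom. Exon overlaps come from GENCODE M21 and promoter windows from RefSeq, GRCm38.p6.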

Additional observations from a re-analysis of the deposited data

Results flagged for a closer look

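The LPS ratio of 3 members differed between genotypes by 2-fold or more with a counting interval that excluded no difference, though no replicate stands behind any of them. The difference, knockout minus wild type on the log2 scale, was -1.16 for Slc37a2, -1.19 for Slc40a1 and -1.63 for Slc4a11, the last on 20 reads (wild type) and 6 reads (knockout) in the LPS libraries.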

How the results depend on the processing

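No called ratio of a named member reversed its direction under the other scalings, in thinned libraries or from FPKM. The FPKM checks covered only named members with a mean FPKM of at least 1. Lost calls of named members numbered 1 by DESeq2 size factors, 2 in thinned libraries, and 3 and 18 from FPKM with a pseudocount of 0.1 and 1. Total counts lost 16 and added 16 others. Uncalled ratios of named members left their counting interval in 67 checks by total counts and in 6 from FPKM with a pseudocount of 1. By total counts, 17 members rose and 34 fell in wild type, and 15 rose and 28 fell in both genotypes; the 15 were among the 26 by TMM, and the 28 held all 17 by TMM. That scaling moves the median of all protein-coding genes to -0.31 and -0.34 with LPS. At a mean CPM of at least 10 (155 members), 12 fell in wild type, 15 in knockout and 11 in both, and 0 were lower in knockout without LPS, 3 with it and 0 in both treatments. With the whole interval beyond 2-fold, 11 fell in both genotypes, 0 were lower in knockout without LPS, 1 with it and 0 in both treatments, and 1 had a lower LPS ratio in knockout. Without a filter (263 genes with reads), 1 was higher and 4 lower in knockout without LPS, 2 were higher with LPS, and 2 had a higher and 5 a lower LPS ratio. Deposited FPKM as log2(value + 1) (167 genes) gave 11 that fell in wild type, 14 in knockout and 10 in both, 0 lower in knockout without LPS, 0 with it and 0 in both, and 1 lower LPS ratio; log2(value + 0.1) gave 13 that fell in wild type, 3 lower in knockout with LPS and 1 in both treatments. These FPKM fits have no interval. DESeq2 size factors, and thinned libraries, each left 1 member lower in knockout in both treatments, with Slc6a4 at -0.998 and -0.986. The additive edgeR model, at an adjusted p of at most 0.05, gave 32 higher and 23 lower with LPS and 0 higher and 2 lower in knockout. Leaving out the 4 genes that are no transporters, an alternative chosen after seeing the data, gave 25 that rose in both genotypes and 17 that fell. No paired analysis was possible because each group holds 1 library and the labels give no replicate numbers.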
